A study of Mus musculus with 28 samples.

Results

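The promoters described here carried acetylation of histone H3 at lysine 27 (H3K27ac), a mark of active promoters and enhancers, in adult mouse germ cells and had no called peak in spermatogonia. They were chosen from peak calls: overlapping peaks of the 12 H3K27ac libraries were merged into 129187 regions, and a region was kept if it was called in all 4 libraries of adult cells, in none of the 8 spermatogonial libraries, held at least 1 peak of the class promoter and overlapped no peak of the 16 input libraries. The rule left 1124 regions, which are called adult-only promoters below. They were 9.74% of the 11543 input-free promoter regions called in all 4 adult libraries, and 17.7% of the 6350 regions of any class that were called in all 4 adult and no spermatogonial libraries.

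All cells came from testes of C57BL/6 mice. Thy1+ spermatogonia, a fraction that includes undifferentiated cells, and c-Kit+ spermatogonia, which are differentiating, came from mice at postnatal day 7, from wild type (WT) animals or from Scml2 knockouts (KO), with 2 libraries in each of the 4 groups. Pachytene spermatocytes (PS), which are in meiosis, and round spermatids (RS), its haploid products, came from adult mice and all 4 libraries of these cells were KO, with 2 in each group. H3K27ac of WT PS and RS was not analysed here, so adult-only stands for adult knockout cells, and the effects of stage, age and isolation by magnetic sorting or sedimentation cannot be told apart. Scml2 encodes a germ cell protein related to Polycomb group proteins; its own promoter region was called in 2 spermatogonial and 2 adult libraries and is not among the 1124. The labels do not say whether 2 libraries of a group came from different mice, so the p-values below measure only the spread between these libraries.

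As germ cells pass from mitosis through meiosis into spermiogenesis, they switch on a large set of genes, many of them little used in other tissues: enzymes with testis-specific isoforms, parts of the acrosome and the flagellum, and the basic proteins that replace histones in sperm. Several transcription factors are known for this switch. A-MYB acts from the pachytene stage, RFX2 binds X-box elements of cilium and spermatid genes, SOX30 acts in late meiosis and early spermatids, and CREM acts in round spermatids.

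Promoter sequences of 8 named members are shown first, as examples of 3 motifs, each found at more than 2 times the share in promoters acetylated in every library. Each is the 250 bases before a transcription start from RefSeq (GRCm38.p6), written 5′ to 3′ on the strand of the gene, with the motif match in capitals. The first 3 hold the MYB motif, GGCAGTT. Ccnb3, an X-linked cyclin of meiosis, and Rfx4, a member of the RFX family, were lower in RS than in PS, and Piwil1, the PIWI protein of pachytene small RNAs, was among the most acetylated members.
Ccnb3 (chrX:7041620-7041869, - strand): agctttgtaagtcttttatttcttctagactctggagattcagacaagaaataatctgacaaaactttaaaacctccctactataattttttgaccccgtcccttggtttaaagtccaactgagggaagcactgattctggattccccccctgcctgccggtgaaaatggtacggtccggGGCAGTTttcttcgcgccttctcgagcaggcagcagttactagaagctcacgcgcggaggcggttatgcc
Rfx4 (chr10:84837898-84838147, + strand): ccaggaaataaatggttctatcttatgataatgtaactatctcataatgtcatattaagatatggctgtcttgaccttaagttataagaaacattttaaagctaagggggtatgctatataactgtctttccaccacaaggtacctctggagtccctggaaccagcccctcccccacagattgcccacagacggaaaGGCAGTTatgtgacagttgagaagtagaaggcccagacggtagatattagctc
Piwil1 (chr5:128735996-128736245, + strand): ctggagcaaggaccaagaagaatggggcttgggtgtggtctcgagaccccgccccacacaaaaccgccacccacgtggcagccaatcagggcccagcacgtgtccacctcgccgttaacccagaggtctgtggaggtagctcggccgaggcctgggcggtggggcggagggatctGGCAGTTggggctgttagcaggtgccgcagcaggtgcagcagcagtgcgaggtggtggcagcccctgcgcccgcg
The next pair hold an X-box, searched as GTNNCC and GNNAC with any 3 bases between them. Tekt1 encodes a tektin of axonemal microtubules, and Iqcf1, a sperm protein with a calmodulin-binding motif, had the largest called rise from PS to RS.
Tekt1 (chr11:72361883-72362132, - strand): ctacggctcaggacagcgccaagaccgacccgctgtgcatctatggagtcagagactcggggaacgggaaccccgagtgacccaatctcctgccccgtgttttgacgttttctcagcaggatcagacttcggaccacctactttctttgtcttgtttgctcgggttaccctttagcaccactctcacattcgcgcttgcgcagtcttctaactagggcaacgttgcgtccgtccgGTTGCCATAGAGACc
Iqcf1 (chr9:106499717-106499966, + strand): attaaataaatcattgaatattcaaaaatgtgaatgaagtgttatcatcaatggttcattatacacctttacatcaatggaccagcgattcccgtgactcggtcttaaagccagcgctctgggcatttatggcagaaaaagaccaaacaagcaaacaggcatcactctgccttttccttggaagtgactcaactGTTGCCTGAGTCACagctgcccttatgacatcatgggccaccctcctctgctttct
The last 3 hold the SOX motif, ACAATGG, on the strand of the gene in Hils1 and on the other strand, as CCATTGT, in Spz1 and Ldhc. Hils1 encodes a spermatid linker histone and Spz1 a testis transcription factor; both were higher in RS. Ldhc encodes the testis lactate dehydrogenase subunit.
Hils1 (chr11:94967343-94967592, + strand): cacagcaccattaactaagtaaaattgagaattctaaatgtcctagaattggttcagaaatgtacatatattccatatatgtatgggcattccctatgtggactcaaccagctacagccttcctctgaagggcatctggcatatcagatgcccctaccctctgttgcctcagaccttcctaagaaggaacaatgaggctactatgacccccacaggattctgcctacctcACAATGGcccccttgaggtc
Spz1 (chr13:92576233-92576482, - strand): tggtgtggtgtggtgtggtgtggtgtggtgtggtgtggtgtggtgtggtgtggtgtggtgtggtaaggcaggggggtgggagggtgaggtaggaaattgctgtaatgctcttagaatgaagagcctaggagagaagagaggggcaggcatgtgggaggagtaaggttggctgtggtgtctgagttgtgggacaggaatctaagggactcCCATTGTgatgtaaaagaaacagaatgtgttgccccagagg
Ldhc (chr7:46861237-46861486, + strand): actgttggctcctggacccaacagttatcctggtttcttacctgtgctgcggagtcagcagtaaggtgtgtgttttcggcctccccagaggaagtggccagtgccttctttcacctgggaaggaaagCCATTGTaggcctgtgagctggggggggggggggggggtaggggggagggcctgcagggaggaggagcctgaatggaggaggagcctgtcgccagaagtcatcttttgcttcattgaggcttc
The match began between 15 bases (Tekt1) and 123 bases (Ldhc) before the start. A match is a run of letters and not a measured binding site.

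Acetylation is given as fold enrichment, the deposited ratio of the signal at a peak's summit to the library's background; where a region held several summits the highest was used. Over the 1124 promoters the mean of the 4 adult libraries had a median of 8.72 and ranged from 3.58 to 36.997. The 8146 promoters called in all 12 libraries had a median of 18.8, so the adult-only promoters were the weaker class. Their median merged length was 1751 bp against 2474 bp, but the first joins peaks of 4 libraries and the second of 12. Measured per library they were also narrower. The median was 1124 bp against 2140 bp in PS and 1338 bp against 2007 bp in RS.

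The most acetylated members included genes of unknown function and isozymes of the testis. At Gm10619, a gene with a provisional name (chr7:73808263-73822634), fold enrichment was 38.9 and 53.8 in PS replicates 1 and 2 and 30.9 and 24.3 in RS replicates 1 and 2; values keep this order below. Mroh4, a HEAT-repeat gene (chr15:74632803-74648121), gave 36.2 and 53.3 in PS and 26.99 and 28.1 in RS. Both PS libraries lay above both RS libraries at these genes, as at 31.9% of all members, and neither difference passed the test described below. Their regions were also among the widest, at 14372 and 15319 bp. At Ldhal6b, a lactate dehydrogenase-like gene, the values were 30.9 and 34.7 in PS and 23.9 and 22.7 in RS. Ldhc gave 23.3 and 33.1 in PS and 26.6 and 28.7 in RS, with the RS values inside the PS range. The other 4 of the 8 strongest members were Gm6567, Gltscr1l, Ptchd3 and 4930444F02Rik, with means between 27.7 and 30.3, and of these 8 only Gm6567 changed between PS and RS.

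Because absence of a call defined these promoters, the calling limits bear on what the class is. A peak was called from a fold enrichment of 3.31 to 3.84 in the spermatogonial libraries and of 3.05 to 3.25 in the adult ones, and the spermatogonial libraries held fewer peaks, 17877 to 36362 against 63322 to 73316. Promoters called in all 12 libraries had a median fold enrichment of 8.16 to 18.2 in the spermatogonial libraries and 15.1 to 21.9 in the adult libraries. Of the 1124 members, 948 (84.3%) lay above 3.84 in all 4 adult libraries, 294 (26.2%) above 2 times that value and 105 (9.34%) above 3 times. A promoter near the limit in adult cells may therefore be acetylated below the limit in spermatogonia, and these tables hold no value for it.

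The share of adult-only promoters fell with the level in adult cells. Among promoters called in all 4 adult libraries, 88 of 275 (32.0%) with a mean fold enrichment under 5 had no spermatogonial call, and 15 of 1840 (0.815%) at 25 or more did. The 15 strongest are thus the exception at their level, while the weak ones are common at theirs. Just inside the rule, with the lowest means, were Rgs16 (3.804), Dab2ip (3.79), Gchfr (3.66) and Snapc1 (3.58). Just outside were Rsad2, Ccdc81, Gpr146 and Epn1, each with a single spermatogonial call at 3.31 in c-Kit+ KO replicate 1 and adult means between 4.002 and 8.21. In all, 290 promoters missed the rule by 1 spermatogonial library, of which 178 (61.4%) by Thy1+ KO replicate 1, the library with the highest values at shared promoters among the spermatogonial libraries. Without that library 1302 promoters met the rule. With the same number of strongest peaks taken from every library, 17877, 489 promoters met it, of which 381 were among the 1124. In the reverse pattern, 10 promoter regions were called in all 8 spermatogonial and no adult libraries. That count asks for calls in more libraries, each with fewer peaks, so it cannot be set against the 1124. By gene, 521 of 15294 (3.41%) had promoter calls in spermatogonial libraries only, in any number of them.

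**Figure D1:**
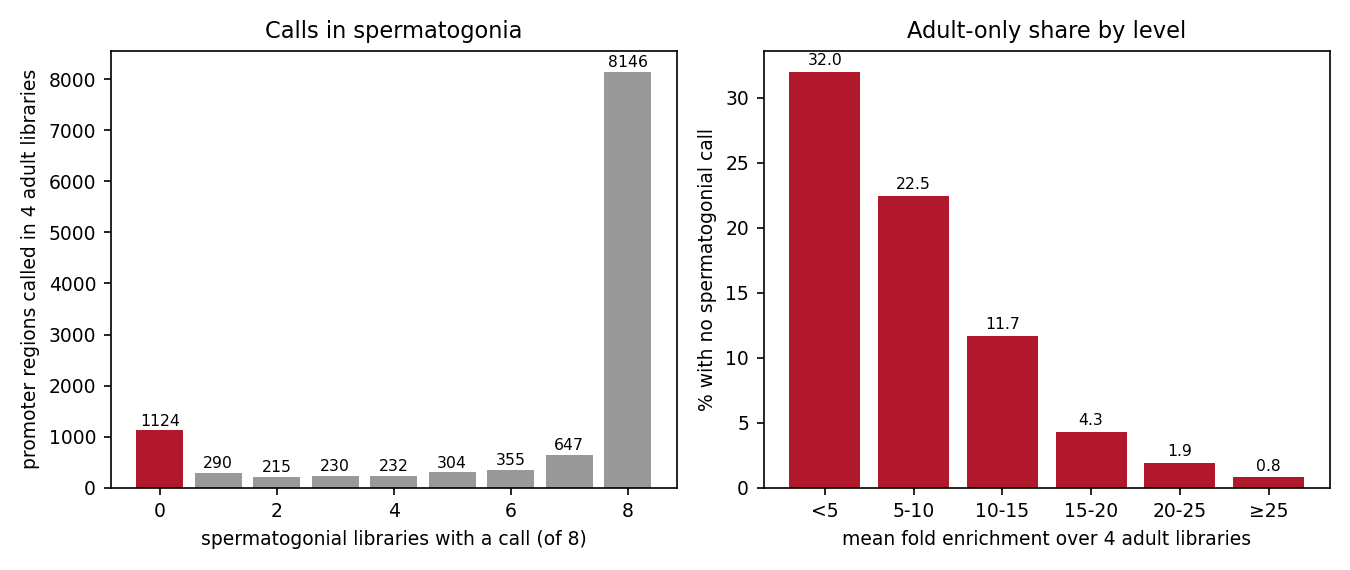
Left, input-free promoter regions called in all 4 adult libraries, by the number of the 8 spermatogonial libraries with a call; the red bar is the 1124 adult-only promoters. Right, the share with no spermatogonial call by mean adult fold enrichment, which falls from 32.0% under 5 to 0.815% at 25 or more.

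The genes named at these promoters were sorted by role. Of 15294 genes with a promoter peak in any library, 1122 (7.34%) had an adult-only promoter. Of the others, 9052 (59.2% of all) had one called in all 12 libraries. A gene with both kinds was counted as adult-only. These are the shares against which each list can be read, but on unlike bases. All 15294 genes have a promoter peak, whereas many lists also count genes without one. Such genes were 8 of 21 ADAM genes and 7 of 35 recombination and synapsis genes. The shares of such lists are therefore lower than among genes with a peak. The lists are of known spermatogenesis genes, chosen with earlier results of these data known, so their counts are no independent evidence. Of 13 genes for packaging sperm chromatin, 7 were adult-only. The spermatid linker histone Hils1 gave 20.2 and 13.9 in PS and 35.6 and 26.0 in RS, and its relative H1f7 gave 16.02 and 10.1 in PS and 23.5 and 26.0 in RS. Tnp1, the transition protein that replaces histones before protamines do, gave 11.1 and 6.40 in PS and 17.6 and 15.7 in RS. At these 3 genes both RS libraries lay above both PS libraries, an order held by 42.7% of all members. Brdt, the testis bromodomain protein, had the opposite order, with 17.5 and 25.1 in PS and 14.9 and 11.9 in RS. Its difference did not pass the test described below. The other members were Chd5, a chromatin remodeller, H2bl1, a histone variant, and protamine Prm1. Prm2, Prm3, Tnp2 and Tssk6, in contrast, had a promoter called in all 12 libraries.

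Acrosome and egg-binding genes supplied 12 members from 32 genes. The proacrosin gene Acr gave 22.1 and 24.5 in PS and 31.7 and 29.8 in RS, and Acrbp, which binds proacrosin, gave 21.4 and 22.9 in PS and 28.9 and 27.05 in RS. Both genes were strongly acetylated already in spermatocytes, and both RS libraries exceeded both PS libraries without passing the test (adjusted p = 0.060 and 0.083, limma). That order was held by 42.7% of all members. Fam209, an acrosome gene, had a wide spread in PS, 19.07 and 9.06, and gave 30.1 and 28.1 in RS. Actl9, an actin-like protein, gave 19.4 and 24.5 in PS and 21.5 and 22.7 in RS. Actl7a and Actl7b shared 1 region.

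Flagellar genes were the largest group, with 23 of 43 genes adult-only in 25 regions. The axonemal dynein gene Dnah17 gave 23.6 and 31.5 in PS and 19.6 and 18.9 in RS, and tektin Tekt4 gave 18.3 and 24.0 in PS and 17.2 and 21.6 in RS. Outer dense fibre gene Odf1 had the opposite order, with 16.02 and 8.00 in PS and 24.6 and 21.6 in RS. Oaz3, an ornithine decarboxylase antizyme of spermatids, followed the same order as Odf1, with 17.5 and 8.53 in PS and 24.3 and 23.3 in RS. Odf4 gave 19.8 and 22.9 in PS and 16.4 and 10.3 in RS, and Hydin, a protein of the central pair, gave 16.4 and 21.3 in PS and 12.5 and 16.2 in RS. Odf1 and Oaz3 passed the test described below, and Dnah17, Tekt4, Odf4 and Hydin did not (adjusted p from 0.115 to 0.863, limma).

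Ion channel and transporter genes gave 10 of 23. Catsper4, a pore subunit of the sperm calcium channel, gave 9.53 and 5.86 in PS and 19.6 and 20.0 in RS, whereas the auxiliary subunit gene Catsperb gave 17.5 and 22.9 in PS and 9.00 and 12.4 in RS. Subunits of 1 channel therefore stood in opposite orders, although the fall at Catsperb did not pass the test (adjusted p = 0.085, limma). The sperm sodium pump gene Atp1a4 gave 11.8 and 5.33 in PS and 17.6 and 15.1 in RS. Kcnu1, the sperm potassium channel, was named at a region that is also listed under Ash2l.

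Metabolic isozymes gave 13 of 26 genes, in 14 regions. Cox8c, a testis subunit of cytochrome oxidase, gave 22.1 and 38.4 in PS and 18.8 and 19.5 in RS. Pdha2, the retrogene of pyruvate dehydrogenase, gave 22.1 and 22.4 in PS and 27.4 and 22.7 in RS, a narrow range over all 4 libraries. Gapdhs, the sperm glyceraldehyde-3-phosphate dehydrogenase, gave 14.5 and 8.00 in PS and 23.1 and 17.3 in RS, whereas the phosphoglycerate mutase gene Pgam2 gave 14.9 and 21.9 in PS and 9.78 and 8.66 in RS. Gk2, a glycerol kinase retrogene, gave 20.6 and 22.4 in PS and 17.2 and 11.4 in RS.

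ADAM genes, whose membrane proteins act on the sperm surface, gave 7 of 21, and none of the 21 had a promoter called in all 12 libraries. Adam2, a fertilin subunit, gave 24.0 and 33.1 in PS and 19.9 and 20.0 in RS, and Adam3 gave 18.3 and 21.9 in PS and 12.1 and 13.0 in RS. Adam1b gave 17.2 and 25.1 in PS and 12.1 and 9.74 in RS. At all 3 genes both PS libraries lay above both RS libraries, as at 31.9% of all members. Adam2 and Adam3 did not pass the test described below (adjusted p = 0.370 and 0.145, limma).

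Among 28 transcription regulators 9 were adult-only. Crem gave 16.8 and 25.1 in PS and 9.00 and 7.57 in RS, and Rfx4 gave 19.07 and 23.5 in PS and 12.9 and 9.74 in RS. Spz1 gave 16.4 and 9.60 in PS and 25.8 and 23.8 in RS. Hsf5, a heat shock factor of spermatocytes, gave 22.5 and 26.7 in PS and 19.2 and 18.9 in RS, and Pou5f2 gave 14.1 and 25.1 in PS and 9.39 and 10.8 in RS. Of these 5 genes only Spz1 was higher in both RS libraries than in both PS libraries, an order held by 42.7% of all members.

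Genes of meiosis itself gave smaller shares. Of 35 genes of recombination and synapsis 8 were adult-only and 14 were called in all 4 adult and 1 to 7 spermatogonial libraries. Hormad1, a protein of the chromosome axis, gave 19.8 and 20.8 in PS and 15.3 and 9.74 in RS, and Syce3, of the synaptonemal complex, gave 14.5 and 17.1 in PS and 14.1 and 13.5 in RS. In the piRNA pathway 5 of 24 genes were adult-only and 15 were called in 1 to 7 spermatogonial libraries. Piwil1 gave 29.0 and 35.7 in PS and 21.5 and 23.8 in RS, and Tdrd6, a Tudor protein of the chromatoid body, gave 19.07 and 29.3 in PS and 16.4 and 16.8 in RS. Of 31 cell cycle genes 2 were adult-only, the cyclins Ccna1 and Ccnb3, while 20 were called in all 12 libraries.

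The remaining lists held 6 of 29 kinase and phosphatase genes, 6 of 27 genes of translation control and RNA binding and 9 of 30 heat shock, chaperone and proteolysis genes. Among kinases, Mak, a kinase of cilia, gave 15.3 and 14.9 in PS and 16.8 and 13.0 in RS, and the testis kinase Tssk5 gave 6.10 and 4.80 in PS and 12.5 and 11.9 in RS. Pabpc6, a poly(A)-binding protein retrogene, gave 21.7 and 36.3 in PS and 20.7 and 14.1 in RS. Clgn, a chaperone of the spermatocyte endoplasmic reticulum, gave 15.3 and 24.0 in PS and 16.8 and 14.1 in RS, and the chaperone gene Dnajb8 gave 14.9 and 6.40 in PS and 24.3 and 19.5 in RS.

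**Figure D2:**
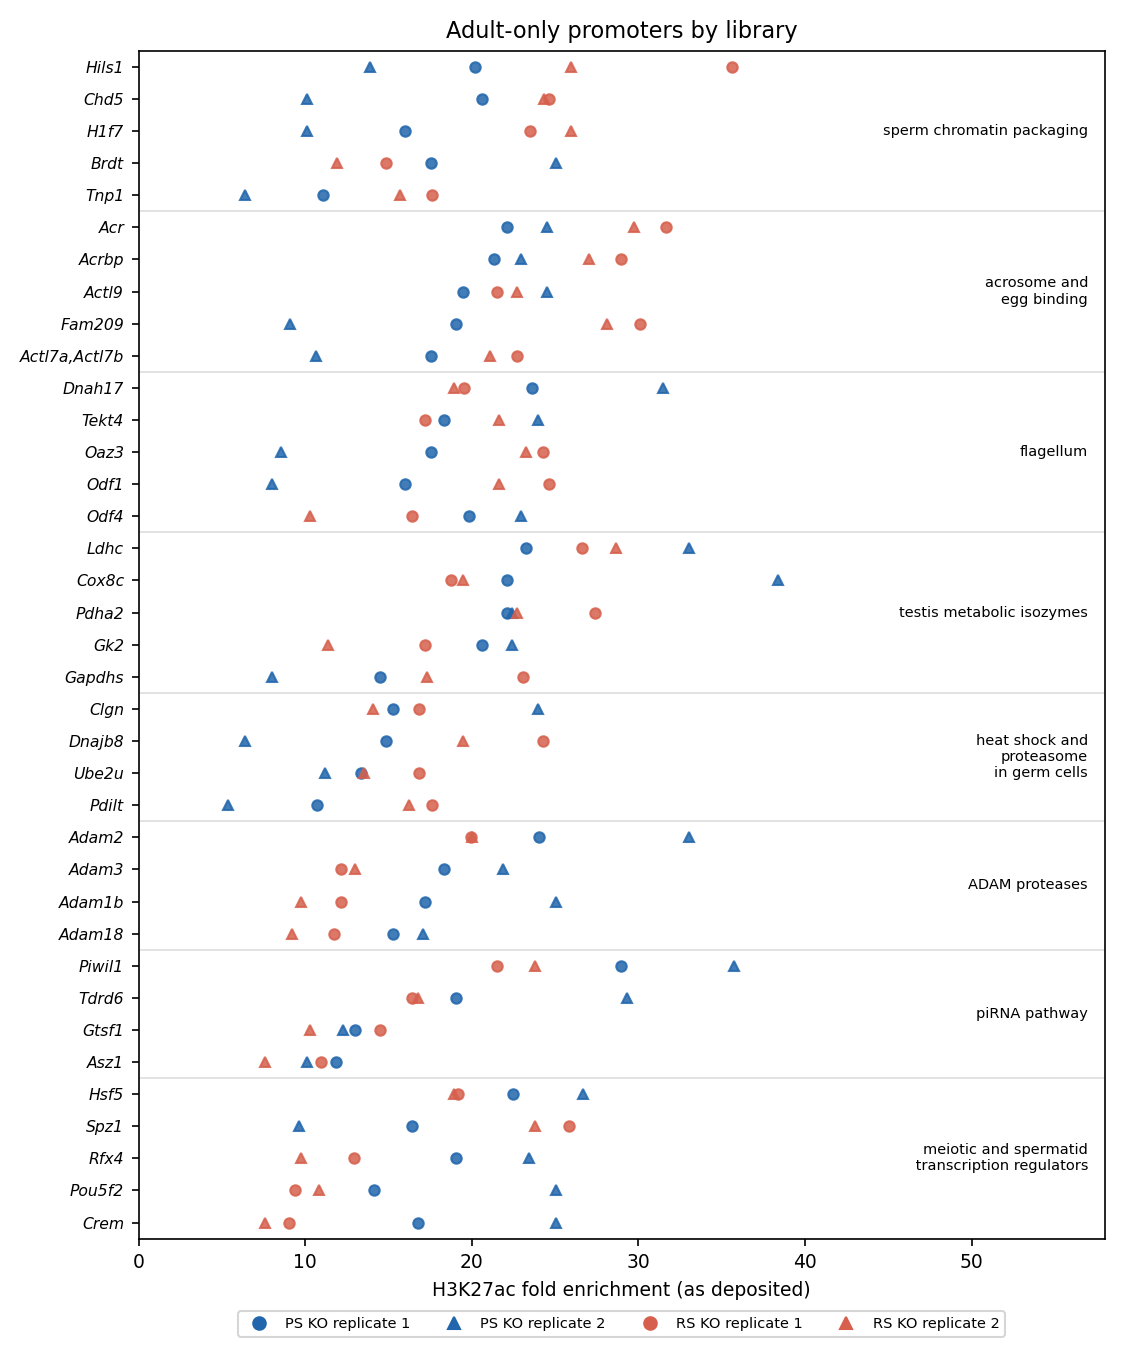
Fold enrichment, as deposited, at the most acetylated adult-only promoters of 8 gene lists. Each gene has 1 point per adult library, blue for PS and red for RS, circles for replicate 1 and triangles for replicate 2; at Hils1 and Odf1 both red points lie to the right of both blue points, and at Crem and Adam1b both lie to the left.

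Whether acetylation at these promoters differed between spermatocytes and spermatids is a comparison that the rule did not use. Relative to each library's median region, acetylation was higher in RS at 366 of the 1124 promoters (32.6%) and lower at 69 (6.14%), by limma with adjusted p under 0.05 over all regions tested. Of all 21329 regions called in the 4 adult libraries, 20.2% passed the test, 12.4% as higher and 7.79% as lower. The members thus held more rises than the background and a share of falls close to it. Promoters called in all 12 libraries stood apart: of 8190 regions of the adult merge that overlap them, 38 were higher and 371 lower. The median log2 change from PS to RS was 0.30 over the adult-only promoters, -0.08 over all regions tested and -0.16 over promoters called in all 12. For the members it was 0.11 without centring, 0.47 with each library centred on promoters called in all 12, 0.14 without PS KO replicate 2, and -0.0079 in a fit of regions called in any of the 4 libraries, with uncalled libraries at their lowest value. Adult-only regions outside promoters resembled the adult-only promoters, with 1566 of 5226 higher (29.97%) and 589 lower (11.3%), so the excess of rises was shared with them.

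**Figure D3:**
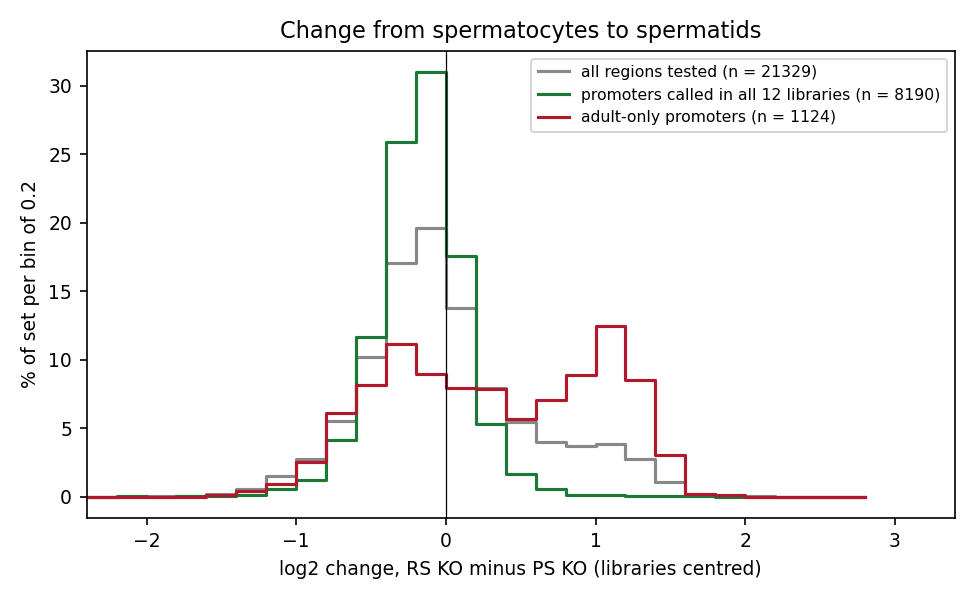
Distribution of the log2 change in fold enrichment from PS KO to RS KO, in bins of 0.2, with every library's median region set to 0. Lines show all 21329 regions tested, 8190 regions at promoters called in all 12 libraries and the 1124 adult-only promoters, whose line has a second mode between 1.0 and 1.2 where the promoters called in all 12 have almost none.

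At the 10 promoters with the largest called rises, PS values were under 10 and RS values above 11. Iqcf1 had a fold enrichment of 7.25 and 3.20 in PS and 15.6 and 14.1 in RS, a log2 change of 1.82 (SE 0.35; adjusted p = 0.0105, limma). Morn3, a sperm protein with MORN repeats, gave 8.77 and 3.73 in PS and 16.4 and 14.6 in RS, a log2 change of 1.63 (SE 0.35; adjusted p = 0.0148, limma). The 3.20 of Iqcf1 was the lowest fold enrichment called in PS KO replicate 2, and the 3.73 of Morn3 lay near it. Adig, 4933426D04Rik and 4930414N06Rik also had 3.73 in that library. In Catsper4, whose values are given above, the log2 change was 1.60 (SE 0.27; adjusted p = 0.00871, limma). Atp8a2, a phospholipid flippase, gave 6.10 and 5.33 in PS and 15.3 and 14.1 in RS, with the tightest PS pair of the 10 largest rises. The 10 also held Tex24, Adig, Tex36, 4933426D04Rik, 4930471G03Rik and 4930414N06Rik, with log2 changes of 1.51 to 1.61. Both RS libraries lay above both PS libraries at all 10, which was a condition for naming them. The same order held at all 366 promoters called higher.

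The falls were fewer; the largest was smaller than the largest rise, and without centring it was larger (Serpina3i -1.71, Iqcf1 1.62). Serpina3i, a serine protease inhibitor gene, gave 20.97 and 20.8 in PS and 6.26 and 6.49 in RS, a log2 change of -1.52 (SE 0.20; adjusted p = 0.00788, limma). Ccnb3 gave 19.4 and 20.3 in PS and 8.21 and 5.41 in RS, a log2 change of -1.38 (SE 0.20; adjusted p = 0.00788, limma). Both replicates agreed closely within PS at these genes. Prps1l1, a testis phosphoribosyl pyrophosphate synthetase, gave 12.2 and 22.9 in PS and 7.43 and 5.95 in RS, and Crem fell by 1.12 on the log2 scale (SE 0.22; adjusted p = 0.0114, limma). Lrg1 and Plin5, at 1 region, gave 11.1 and 11.7 in PS and 3.52 and 4.87 in RS. The other falls among the 10 largest were at 4930547C10Rik, 4930595M18Rik, 4933400L20Rik, 4921524L21Rik and 1700029F12Rik, with log2 changes between -1.34 and -1.11.

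By role, rises were most frequent among heat shock and proteolysis genes, with 6 of 9 regions higher and none lower (1 of the 6 is the kinase gene Tssk4, which the kinase list also holds), and chromatin packaging genes, with 4 of 7 higher and none lower. Pdilt (log2 change 1.36) and Dnajb8 (1.35) were among the first of these, and Tnp1 (1.18), H1f7 (1.15), Hils1 (1.05) and H2bl1 (0.87) were the second. Over all 1124 members 32.6% were higher and 6.14% lower, the shares beside which each list can be read. Acrosome genes had 5 of 12 higher and ion channels 5 of 10. Flagellar genes had 9 of 25 higher with 1 lower, and metabolic isozymes 5 of 14 with 1 lower, Pgam2 (-0.78). ADAM genes had none higher and 1 of 7 lower, Adam1b (-0.74), and transcription regulators had 3 of 9 higher, among them Spz1 (1.18), and 2 lower, Crem and Rfx4 (-0.72). Recombination, piRNA, translation and cell cycle genes together gave 3 higher regions, Rec8 (0.92), Tdrd1 (0.98) and Celf3 (1.32), and 1 lower, Ccnb3. These lists are small, and the shares of rises in flagellar, metabolic and regulator genes were close to that of all members. The median log2 change ran from 1.00 (heat shock and proteolysis) to -0.79 (cell cycle, 2 regions) beside -0.08 for all regions.

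The counts depend on 1 library and on the centring. Without PS KO replicate 2, none of 26339 regions passed the adjusted threshold in limma; at an unadjusted p under 0.05, 284 members were higher and 101 lower. The sizes of the rises also rest on this library: of the 32 named members that rose, 26 had a log2 change over 1.5 times smaller without it, and their median went from 1.33 to 0.67 (Iqcf1 1.09, Morn3 0.88, Pdilt 0.72, Hils1 0.64, Dnajb8 0.60, Rec8 0.37). Of the 16 named that fell, none shrank that much (median -1.13 and -0.94). PS KO replicate 2 was lower than PS KO replicate 1 at 335 of the 366 promoters that rose (91.5%) and at 17 of the 69 that fell, while the pair was nearly balanced over all members (lower at 628 of 1124); the part of the mix of cells in each PS library was not tested. Without centring, 346 were higher and 167 lower, so that 67.4% of calls were rises in place of 84.1%, and with centring on promoters called in all 12 libraries, chosen after seeing the data, 451 were higher and 34 lower (92.99%). The median of all regions was 0.19 log2 units lower in RS than in PS before centring.

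Marker genes were checked in the same way. Of 20 spermatid markers 11 were adult-only, beside 7.34% of all genes with a promoter peak. Another 6 (Prm2, Prm3, Tnp2, Tssk1, Tssk2 and Tssk6) had a promoter called in all 12 libraries, and 2 were called in 1 to 7 spermatogonial libraries. Of the 11 adult-only regions 7 were higher in RS and none lower, beside 32.6% and 6.14% of all members. Among the 7 were Odf1, Sun5 (log2 change 1.44) and Tex36 (1.53). Of 16 spermatocyte markers 8 were adult-only, 3 had a promoter called in all 12 libraries and 5 were called in 1 to 7 spermatogonial libraries. None of the 8 adult-only regions passed the test, with a median log2 change of -0.40. None of 14 Sertoli cell and none of 9 Leydig cell markers had an adult-only promoter. These lists are too short to set against 7.34% of all genes with a promoter peak. Moreover, 4 of the 14 and 3 of the 9 had no promoter peak in any library. Some somatic markers were called in 1 to 3 adult libraries only: Cldn11 and Dhh (Sertoli), Hsd17b3 (Leydig), Vwf (endothelial), and Adgre1, C1qa and Lyz2 (macrophage). Others went the other way, with Fshr (Sertoli) and Myh11, Tek and Kdr (peritubular and endothelial) called in spermatogonial libraries only. Gata4, Vim, Tjp1 and Inha (Sertoli), Nr5a1 (Leydig), Cdh5 (endothelial) and Cd68 (macrophage) had a promoter called in all 12 libraries. In 1 of 10 peritubular and endothelial markers, Pecam1, a pair of weak regions was adult-only (means 4.90 and 4.21), and 1 of 10 macrophage and blood markers, Aif1, was adult-only and higher in RS (log2 change 1.23), with 15.3 and 8.00 in PS and 23.9 and 21.6 in RS. Of 22 spermatogonial markers Dmrtb1 and Rhox13 were adult-only. The adult-only spermatid markers that passed the test were thus all higher in the libraries labelled RS. Several of them are members named above. The change from PS to RS was not looked up for the spermatid markers that are not adult-only.

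The sex chromosomes are transcriptionally silenced in pachytene spermatocytes and only part of their genes return in spermatids. Of the 1124 promoters 39 (3.47%) were on the X chromosome and 1 on the Y, beside 2.41% on the X among promoters called in all 12 libraries, 3.00% among those called in all 4 adult libraries and 3.73% among all input-free promoter regions. The share of the members thus lay between these. From PS to RS, 3 of the 39 rose and 6 fell, and the median log2 change was -0.19, against 0.32 for the members not on X. All X-linked regions tested had a median of -0.28, with 4 of 467 higher and 70 lower, a median of the same sign as that of the X-linked members. Gm7173 gave 19.8 and 27.7 in PS and 13.7 and 9.20 in RS, a fall that passed the test, as did those of Ccnb3 and Gm364. Akap4, the main protein of the fibrous sheath, gave 12.6 and 11.7 in PS and 14.5 and 13.0 in RS, and Tsga8, a spermatid gene, gave 17.9 and 17.1 in PS and 14.5 and 16.2 in RS. Neither Akap4 nor Tsga8 passed the test.

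The base composition of these promoters was described from RefSeq windows of 300 bases (250 before to 50 after a start). A window was found for 755 of the 1124 members (67.2%), under the 80% needed for a check over all members, so the shares hold for those 755 alone. CpG dinucleotides were scarce: the ratio of observed to expected CpG had a median of 0.302, against 0.826 in 6737 promoters called in all 12 libraries and 0.383 in all 32817 windows. A ratio of at least 0.6, as in CpG islands, was reached by 17.6% of member windows, 84.9% of those called in all 12 and 35.8% of all windows. Median GC content was 51.7%, 62.7% and 52.7% in the same order. The printed Hils1 and Spz1 windows hold no CpG at all, whereas Ccnb3 reached 0.948.

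Motifs were searched on both strands, and each share is that of windows with at least 1 match. The MYB motif was in 9.14% of member windows, 3.43% of those called in all 12 and 4.12% of all windows. The X-box was in 10.7%, 5.27% and 4.62%, and the shorter RFX site GTTGCC, which overlaps many X-box matches, in 21.6%, 12.1% and 12.5%. The SOX motif was in 9.80%, 1.94% and 3.67%. All 3 motifs were thus more frequent in members than in either comparison set. The GC box GGGCGG went the other way, with 24.0%, 71.8% and 35.6%, as did TGACG, the core of the cAMP response element, with 15.8%, 36.8% and 20.8%. The full element TGACGTCA, to which CREM binds, was in 1.19%, 4.01% and 1.79%. CCAAT was nearly even at 38.9%, 37.5% and 37.4%, and TATAAA was in 8.87%, 5.17% and 13.6%. The E-box CACGTG was in 8.34%, 10.9% and 7.15%, and the NRF1 motif (GCGCA followed by TGCGC) in 0.662%, 2.54% and 0.966%. These are descriptions without a test, and the sets differ in base composition, whose part in the shares was not tested.

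**Figure D4:**
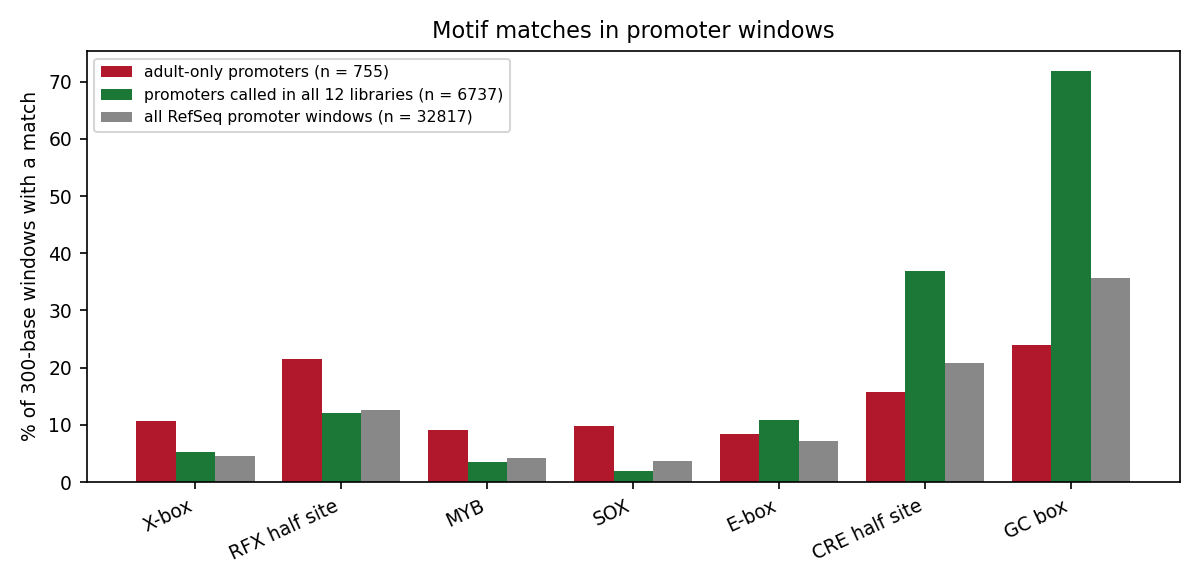
Share of 300-base RefSeq promoter windows with at least 1 match to each motif, on either strand, in 755 adult-only promoters, 6737 promoters called in all 12 libraries and all 32817 windows. X-box, MYB and SOX bars are tallest for the adult-only promoters, and the GC box bar is tallest for promoters called in all 12 libraries.

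Within the members the motifs were spread unevenly over the change from PS to RS. The MYB motif was in 13 of 46 windows of promoters that fell (28.3%), 42 of 429 that did not pass the test (9.79%) and 14 of 280 that rose (5.00%). TATAAA ran in the same order, in 8 of 46 (17.4%), 43 of 429 (10.0%) and 16 of 280 (5.71%). The SOX motif ran in the opposite order, in 2 of 46 (4.35%), 33 of 429 (7.69%) and 39 of 280 (13.9%). X-boxes were most frequent where no change was called, in 54 of 429 (12.6%), beside 2 of 46 (4.35%) and 25 of 280 (8.93%). The promoters that rose were also the poorest in CpG, with a median observed to expected ratio of 0.167 against 0.318 for those that fell and 0.430 for the rest, and the widest, with a median length of 2676 bp against 1681 and 1600 bp. The group that fell is small, and the shares carry no test.

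**Figure D5:**
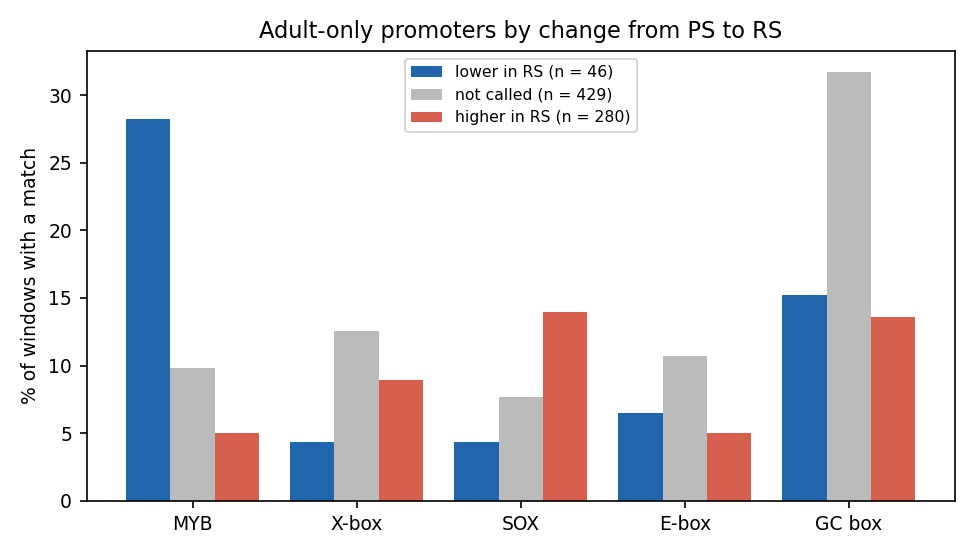
Share of adult-only promoter windows with a motif match, by change from PS to RS: 46 windows of promoters lower in RS, 429 not called and 280 higher in RS. The MYB share falls from 28.3% to 5.00% from left to right, and the SOX share rises from 4.35% to 13.9%.

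The highest promoter summit lay a median of 168 bp downstream of the listed start (quartiles -223.5 and 314.5 bp; 1087 regions with a start listed under a single gene), and within 0.5 kb of it at 77.0%. At promoters called in all 12 libraries the median was 249 bp, and 81.9% of summits were downstream of the start against 65.9% of the members. Genes listed only with noncoding transcripts made up 223 of 1061 genes (21.0%), compared with 3.24% of those called in all 12, and 34.4% of the genes had provisional names, compared with 6.87%. Promoters with listed starts on both strands were few, 5 of 1124 (0.445%), compared with 2.23%.

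Some of these promoters were second promoters of genes that were already acetylated in spermatogonia. Of the 1122 genes, 127 (11.3%) had another promoter region called in at least 1 spermatogonial library, and 67 (5.97%) one called in all 8, at a median distance of 6530 bp. At Crem the adult-only region (chr18:3298731-3301450; mean 14.6) lay 16406 bp from a promoter called in all 8 spermatogonial libraries, where fold enrichment was 10.4 ± 2.03 (SD, n = 8) in spermatogonia and 12.8 on average in adult cells. At Ttc39a, a gene of unknown function, the adult-only region had a mean of 15.3 and the other promoter 5.32 ± 1.42 (SD, n = 8) in spermatogonia and 4.92 in adult cells. Samd4, an RNA-binding regulator of translation, had them 116057 bp apart, with means of 13.3 in adult cells at the adult-only region and 8.81 ± 3.803 (SD, n = 8) in spermatogonia at the other. Tbc1d14, Asb8, Lrrc51 and Hmox2 showed the same arrangement. The gaps ran from 11 to 387916 bp, so some pairs are neighbouring peaks, and some regions, such as that listed under both Ash2l and Kcnu1, may belong to another gene.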

How the data were processed

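H3K27ac ChIPmentation was measured in 12 libraries and input chromatin in 16; groups and replicate numbers come from the sample titles. The submitters' processing notes name Bowtie, MACS2 and mm10; versions and filters are not given in the sources used here. Per the file headers, each deposited table lists 1 library's peaks with a signal height, a −log10 p-value, a −log10 q-value and a fold enrichment (a ratio). Within each library the deposited fold enrichment equals (height + 1) over (background + 1), so it carries no input correction; background heights of 0.849 to 1.62 (adult) and 0.564 to 1.11 (spermatogonial) are the only indication of depth. Read totals were not used here.

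Peaks overlapping by at least 1 bp were merged, and a region took each library's highest fold enrichment. PS and RS were compared with limma 3.58.1 (R 4.3.3) on log2 fold enrichment of 21329 regions called in all 4 libraries, each library centred on its median, with Benjamini-Hochberg adjustment over all regions. The fit was tested on simulated data. The 4 libraries were the only ones fitted. Named genes were the 8 strongest members, the 10 largest called rises and falls, up to 6 per gene list, up to 8 sex-linked members, and the members nearest the threshold. The rises and falls were named only where both RS libraries lay above, or both below, both PS libraries. Members and lists were chosen with earlier results of these data known. Python 3.11.15 and pandas 2.3.3 were used for the rest. A named member of 1 gene list is not reported here.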

Additional observations from a re-analysis of the deposited data

How the results depend on the processing

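The number of adult-only promoters ranged from 1125 to 1511 when 1 of the 12 libraries was left out, most without PS KO replicate 2. It was 489 when only the strongest 17877 peaks of each library entered. The other 5 ways of merging and filtering gave 910 to 1128. The 910, from peaks of −log10 q of at least 5, held 652 of the 1124 members, so much of the set changed there. The rest held 972 to 1124 of them. Regions changed from PS to RS numbered 4309 and ranged from 0 to 3495 with 1 adult library left out, 0 being without PS KO replicate 2; members higher in RS ranged from 0 to 372 and lower from 0 to 67 over the same fits, which rest a group on 1 library that is assumed to vary like the other group. Without RS KO replicate 1, 2617 regions changed and 34 members were lower, and without RS KO replicate 2, 42 were lower. With peaks of −log10 q of at least 5, 1982 regions changed and 21 members were lower, with fewer regions and members tested. With regions called in any of the 4 libraries and uncalled libraries set to their lowest value, 0 of 110893 regions changed, so 0 members were higher and 0 lower by limma (25345 regions, and 153 members higher and 255 lower, at an unadjusted p under 0.05, so that falls outnumber rises there). Without centring 167 members were lower, and with the added centring 34 were. Of 48 named members with a called change, Spaca4 reversed, to -0.28 with peaks joined within 1000 bp; no other named member reversed under the alternatives in which it had a value (33 of the 48 with the stricter peaks, all 48 in the others). With the replicate number as a block, 392 members were higher and 81 lower, and 363 of the 366 and 68 of the 69 remained called. In the labels same-numbered libraries share only a number. Their background heights were also alike, 1.62 and 1.56 in PS and RS replicate 1 and 0.876 and 0.849 in replicate 2. Over regions, deviations from the group mean correlated at 0.0412 between PS and RS replicate 1. Depth limits the weakest members, whose fold enrichment lies near the lowest that was called.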

Other observations

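The acetylated stretch at adult-only promoters was longer in RS than in PS, with a median length per library of 1338 bp against 1124 bp and 4.47 against 3.56 summits per region. Promoters called in all 12 libraries had lengths of 2007 bp in RS and 2140 bp in PS and 5.49 summits in both. Another 584, 989 and 2346 promoter regions without a spermatogonial call were called in 3, 2 and 1 adult libraries.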
